A study of Mus musculus with 12 samples.

Results

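The genes described here are 10 genes of the interleukin-6 (IL-6) family pathway, from its ligands and receptors to the transcription factor STAT3 and its feedback inhibitor: Lif, Cntf, Il6ra, Osmr, Lifr, Il6st, Jak1, Jak2, Stat3 and Socs3. They were found by gene name among the 55401 genes of the expression tables, and all 10 are present in both tables. The genes were chosen from earlier results of the same samples, in which some of them differed upon NAD+ exposure. Their differences between NAD+ and Ctrl are therefore given below as a description. Their p-values are not printed, and whether a gene passed a p threshold is stated without being read as evidence. The cells are adult neural stem/progenitor cells (aNSPCs), isolated from the forebrain of C57BL/6 mice aged 8 to 10 weeks and grown in medium with the growth factors EGF and FGF-2. RNA-seq was performed on 4 groups of 3 samples, 12 in all: proliferating aNSPCs without NAD+ (proliferating Ctrl) or with 1 mM NAD+ (proliferating NAD+), and aNSPCs under differentiation conditions, with 1 µM retinoic acid and 5 µM forskolin, without NAD+ (differentiation Ctrl) or with 1 mM NAD+ (differentiation NAD+). The treatment field of the labels lists all 12 samples as untreated, while the titles of 6 of them name NAD+, and the groups follow the titles. The labels do not say whether the 3 samples of a group come from separate cultures or mice, while the study calls them biological repeats. The spread between them stands for culture or animal variation only as far as that description holds.

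Cytokines of the IL-6 family act through receptors that share a signalling subunit, gp130, the product of Il6st. A ligand-specific partner (the IL-6, LIF or oncostatin M receptor) joins gp130, the Janus kinases JAK1 and JAK2 bound to the receptor tails are activated, and STAT3 is phosphorylated, enters the nucleus and switches on target genes such as Socs3, whose product shuts the receptor down. In neural stem cells this pathway is known for driving the formation of astrocytes, with Gfap among the genes STAT3 binds.

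Expression was measured as FPKM, a count of fragments divided by transcript length and by the mapped fragments in the library, so that levels can be set beside each other between genes. The deposited values are rounded to 0.01, the depth behind them is unknown, and their sum per sample lay between 308828 and 363330, with the highest sum in proliferating Ctrl replicate 1. The progenitor markers Sox2 and Nes were expressed in all 12 samples, Sox2 at 129 to 252 FPKM and Nes at 9.0 to 97.0 FPKM. The 10 markers of microglia and macrophages, cells rich in cytokine receptors, summed to at most 0.61 FPKM in every sample, with 0.29 FPKM as the highest single value, and the 4 endothelial markers summed to at most 0.17 FPKM. Replicate 1 of both proliferating groups stood apart in some astrocyte genes and in the progenitor marker Nes. Nes was at 47.77 FPKM in proliferating Ctrl replicate 1 against 77.63 and 80.94 in the others. In proliferating NAD+ replicate 1 it was at 62.48 FPKM against 96.96 and 86.53. Aqp4 was at 13.68 FPKM in proliferating Ctrl replicate 1 against 5.82 and 5.23 in the others. It was at 9.95 FPKM in proliferating NAD+ replicate 1 against 2.42 and 2.82. Not all astrocyte markers followed: in proliferating Ctrl, replicate 1 was the lowest for Slc1a2 (16.43 against 18.97 and 17.57 FPKM) and Slc1a3 (236.86 against 288.26 and 274.69 FPKM). Counts under proliferating conditions are therefore also given without replicate 1 of either group. In RNA from a whole culture, fewer cells of a type and less RNA per cell cannot be told apart.

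Because 3 receptor genes were called higher together upon NAD+ exposure under differentiation conditions, as given below, promoter sequences were searched. The 250 bases before a RefSeq transcript start of each gene were searched for the STAT-type palindrome TTCNNNGAA and for a looser form. The sequences are those of RefSeq on the build GRCm38.p6, in which all 10 genes were matched. For Socs3 and Osmr the start used lies 681 and 656 bases inside the gene as annotated by GENCODE, so their windows fall within the gene spans given below. For Lifr, the starts used lie 39.0 and 49.9 kb inside the annotated gene, whose 5′ end was not searched. The motif TTCNNNGAA, which reads the same on both strands, was present before the start of 1 of the 10 genes, Socs3, and in 7.02% of the 32851 windows of all genes. The looser form, TTANNNGAA on either strand, is not a palindrome and was chosen after the sequences were seen. It was present before the starts of Stat3, Il6st and Osmr and in 9.08% of all windows. Since this form was picked with these sequences in view, the share is a description and tests nothing. The matches with 10 bases on each side are printed below from 5′ to 3′ on the strand of the gene, with the motif in capitals.
Socs3 (chr11:117969502-117969530, minus strand, 154 bases before the start): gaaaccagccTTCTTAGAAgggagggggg
Stat3 (chr11:100939761-100939789, minus strand, 239 bases before the start): cagcaggacaTTCCGCTAAtgtctcctcc
Il6st (chr13:112463940-112463968, plus strand, 120 bases before the start): gggagccgcgTTACGGGAAtcgcagaggc
Osmr (chr15:6874330-6874358, minus strand, 35 bases before the start): ccccggcgctTTCCCGTAActcccgcccc
The stretches of Il6st and Osmr read TTACGGGAA and TTCCCGTAA, which are the same 9 bases read from opposite strands. A match is a description of letters and shows no binding. The windows searched for Lif, Cntf, Il6ra, Lifr, Jak1 and Jak2 held neither motif, which says only that these letters are not in them.

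Without NAD+, Il6st, Lifr, Jak1, Jak2 and Stat3 were expressed in both conditions, whereas Il6ra, Osmr and Lif were low under proliferating conditions and higher under differentiation conditions. In proliferating Ctrl samples, Jak2 (15.6 ± 1.86 FPKM, SD, n = 3), Stat3 (15.4 ± 1.52), Jak1 (14.0 ± 0.904) and Il6st (12.9 ± 1.11) headed the order, each overlapping the next. Lifr followed at 10.3 ± 1.26 FPKM, Cntf at 1.79 ± 0.798 FPKM and Socs3 at 0.477 ± 0.118 FPKM, each below the lowest sample of the gene before. Il6ra (0.123 ± 0.0252), Lif (0.117 ± 0.0351) and Osmr (0.1 ± 0.0436 FPKM) came last and overlapped one another. In differentiation Ctrl samples the order was Il6st (42.5 ± 1.45 FPKM), Jak1 (26.0 ± 0.871), Stat3 (18.4 ± 1.1), Jak2 (13.6 ± 0.206), Cntf (9.36 ± 0.322), Lifr (7.85 ± 0.163), Socs3 (2.67 ± 0.326), Osmr (2.57 ± 0.187), Il6ra (1.18 ± 0.0493) and Lif (0.457 ± 0.132), and only Socs3 and Osmr overlapped as neighbours.

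The 2 conditions come from separate tables that may have been scaled separately, so their levels are set side by side with no test. The ratio of the mean FPKM in differentiation Ctrl to that in proliferating Ctrl was 25.7 for Osmr, 9.59 for Il6ra, 5.59 for Socs3, 5.23 for Cntf, 3.91 for Lif and 3.28 for Il6st, and these 6 genes were more than 2-fold higher, against 19.7% of the 19498 genes compared. None of the 10 was more than 2-fold lower, against 16.9% of those genes. Jak1 was at a ratio of 1.86 and Stat3 at 1.19. Lifr went the other way, with a level 1.31 times higher in proliferating Ctrl, and Jak2 overlapped between the conditions. The median difference of the 10 genes between the conditions was 1.53 on the log2 scale, beside -0.07 over all genes. With NAD+ in both conditions the ratios were 28.1 for Osmr, 7.23 for Il6ra, 8.02 for Socs3 and 4.32 for Il6st.

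**Figure D1:**
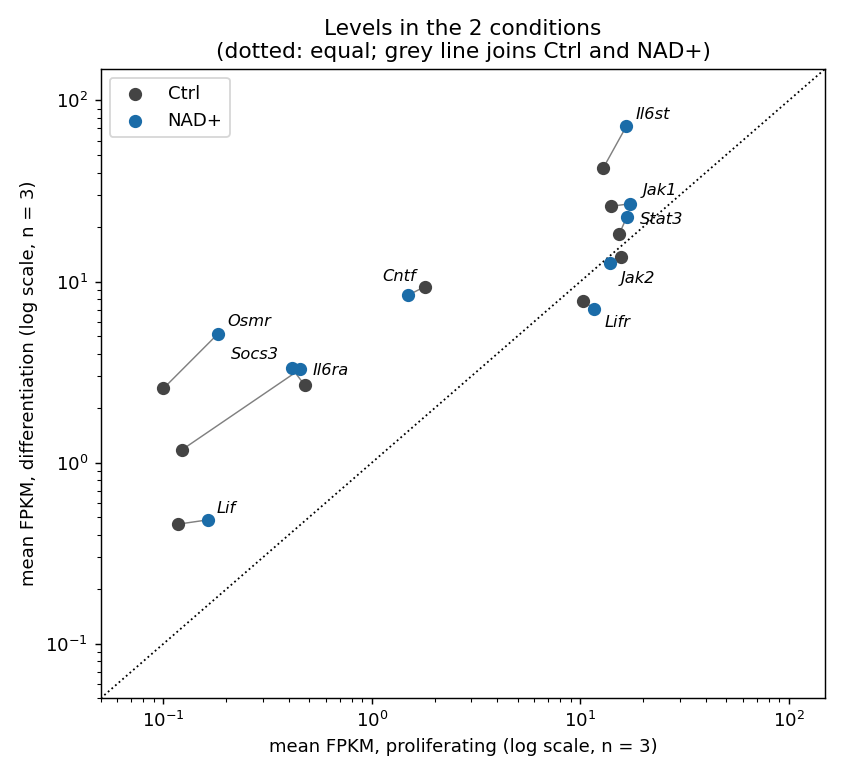
Mean FPKM of each of the 10 genes under proliferating conditions (horizontal, log scale) against differentiation conditions (vertical, log scale), n = 3 for each mean, with Ctrl in grey, NAD+ in blue and a line joining them. Osmr, Il6ra, Lif, Socs3, Cntf and Il6st lie well above the dotted line of equal levels. Lifr and, more narrowly, Jak2 lie below it in both groups.

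The effect of NAD+ was examined within each condition. Differences were taken between the group means of log2(FPKM + 0.1), a scale that understates the change of low genes, and a gene was called when the limma adjusted p, by the Benjamini-Hochberg method over all genes tested, was under 0.05. All 10 genes passed the filter on low values (an average of 0.1 FPKM or more over the fitted samples) in each fit. Under differentiation conditions 3 of the 10 genes, the receptor genes Osmr, Il6ra and Il6st, were called higher upon NAD+ exposure and 0 were called lower, and 5 had an unadjusted p under 0.05, against 24.2% of all genes. Of the 19611 genes tested, 2.27% were called higher and 4.65% lower, and since the 10 genes were chosen with this contrast known, nothing is read from their count. Of all calls under differentiation conditions 32.8% were higher, which became 53.5% after median-ratio scaling and 50.0% after quantile normalization. These shares were 33.3%, 21.2% and 26.7% for the calls under proliferating conditions and 47.3%, 74.5% and 69.2% for the difference between the conditions. Under proliferating conditions 0 of the 10 genes were called by limma, against 0.145% of the 18597 genes tested, and 3 had an unadjusted p under 0.05 (Il6ra, Il6st and Jak1), against 15.4% of those genes. The count of 0 was the same without replicate 1 of either proliferating group. Without proliferating NAD+ replicate 1, the log2 differences of Il6ra, Il6st and Jak1 were 1.26, 0.25 and 0.24, against 1.31, 0.35 and 0.31 with it. The rule of the study, an unadjusted p under 0.05 and a ratio of means beyond 2-fold in either direction, was applied with the limma p. The study's own p-values were not used, so the calls are not its own. By this rule 1 gene was called under proliferating conditions (Il6ra, beside 3.01% of all genes). Under differentiation conditions 2 were called (Osmr and Il6ra, beside 4.05%).

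**Figure D2:**
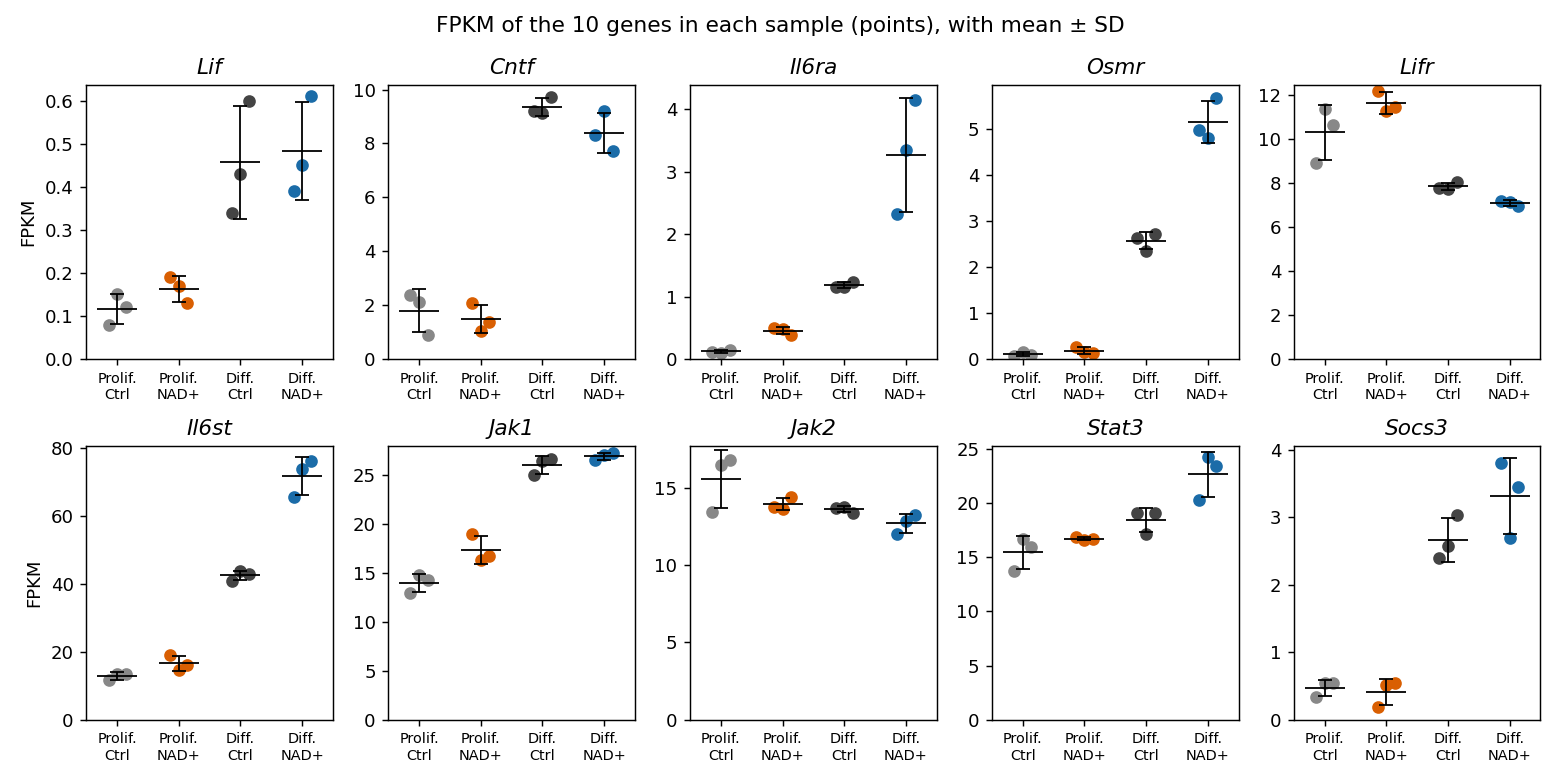
FPKM of the 10 genes in each of the 12 samples (points), by group, with the mean as a bar and the SD as an error bar, n = 3, on a linear axis from 0 for each gene. Osmr, Il6ra, Il6st and Stat3 are higher in every differentiation NAD+ sample than in every differentiation Ctrl sample, whereas Lif, Cntf and Socs3 overlap between these groups.

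Among the receptors, Osmr (ENSMUSG00000022146, mm10 chr15:6813577-6874969, minus strand) encodes the oncostatin M receptor, which pairs with gp130. Under differentiation conditions it was at 2.63, 2.36 and 2.72 FPKM in Ctrl samples and at 4.99, 4.80 and 5.68 FPKM in NAD+ samples. The groups did not overlap, and the lowest NAD+ sample stood well above the highest Ctrl sample. The ratio of means was 2.01 and the log2 difference 0.98 (SE 0.10), the second largest of the 10 genes, and its call was kept in each of 13 alternative settings. Under proliferating conditions Osmr was at 0.07, 0.15 and 0.08 FPKM in Ctrl samples and at 0.27, 0.15 and 0.13 FPKM in NAD+ samples, which overlapped (log2 difference 0.49, SE 0.34).

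Lifr (ENSMUSG00000054263, chr15:7090614-7197489, plus strand), the gene of the LIF receptor, lies 215.6 kb from Osmr, with 1 gene between them and 0 protein coding genes. Under differentiation conditions Lifr was at 7.79, 7.72 and 8.03 FPKM in Ctrl samples and at 7.18, 7.16 and 6.94 FPKM in NAD+ samples. All 3 NAD+ samples were below all 3 Ctrl samples, but the difference was small (ratio 0.904, log2 difference -0.14, SE 0.06) and was not called. The median of all genes lay at -0.08, and the difference of Lifr was -0.06 after median-ratio scaling and -0.07 after quantile normalization. Under proliferating conditions Lifr was at 8.93, 11.39 and 10.62 FPKM in Ctrl and at 12.20, 11.26 and 11.48 FPKM with NAD+, which overlapped (log2 difference 0.18, SE 0.11).

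The products of both genes pair with gp130, and their relative level differed between the groups. Within a sample, the ratio of Osmr to Lifr FPKM was 0.338, 0.306 and 0.339 in differentiation Ctrl and 0.695, 0.670 and 0.818 in differentiation NAD+. The groups did not overlap, and the mean ratio went from 0.327 ± 0.0188 to 0.728 ± 0.0793 (SD, n = 3). In proliferating samples the ratio stayed low, between 0.00753 and 0.0132 in Ctrl and between 0.0113 and 0.0221 with NAD+. The ratio of Osmr to Il6st under differentiation conditions was 0.0643, 0.0540 and 0.0636 in Ctrl and 0.0762, 0.0651 and 0.0746 with NAD+. These values also did not overlap, by a narrow margin. A ratio within a sample shows unequal change of 2 genes and not which of them changed.

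Il6st (ENSMUSG00000021756, chr13:112464070-112510086, plus strand), the gene of the shared subunit gp130, had the highest level of the 10 genes under differentiation conditions. It was at 40.88, 43.74 and 42.76 FPKM in Ctrl samples and at 65.52, 73.68 and 76.16 FPKM in NAD+ samples, without overlap. The mean went from 42.5 ± 1.45 to 71.8 ± 5.57 FPKM (SD, n = 3), a ratio of 1.69 and a log2 difference of 0.75 (SE 0.07). Its call was kept in each of the 13 alternatives, while the ratio was below the 2-fold of the study's rule. Under proliferating conditions Il6st was at 11.66, 13.59 and 13.58 FPKM in Ctrl and at 19.06, 14.61 and 16.14 FPKM with NAD+. All NAD+ samples were again above the Ctrl samples, with a smaller log2 difference of 0.35 (SE 0.12) that was not called.

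Il6ra (ENSMUSG00000027947, chr3:89864059-89913196, minus strand) encodes the subunit that binds IL-6 itself. Under differentiation conditions it was at 1.15, 1.16 and 1.24 FPKM in Ctrl samples and at 2.33, 3.35 and 4.15 FPKM in NAD+ samples. The NAD+ samples were all higher than the Ctrl samples and spread over a wider range. The ratio of means was 2.77 and the log2 difference 1.36 (SE 0.21), the largest of the 10 genes. The call was lost when any differentiation Ctrl sample or differentiation NAD+ replicate 2 was left out, with log2 differences of 1.33 to 1.39 there. Under proliferating conditions Il6ra was at 0.12, 0.10 and 0.15 FPKM in Ctrl and at 0.49, 0.48 and 0.39 FPKM with NAD+. The groups did not overlap (ratio 3.68, log2 difference 1.31, SE 0.25), and limma did not call the difference. Its ratio to Il6st within a sample was 0.0281, 0.0265 and 0.0290 in differentiation Ctrl and 0.0356, 0.0455 and 0.0545 in differentiation NAD+, without overlap. An antisense transcript shares 2.8% of its exon bases.

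**Figure D3:**
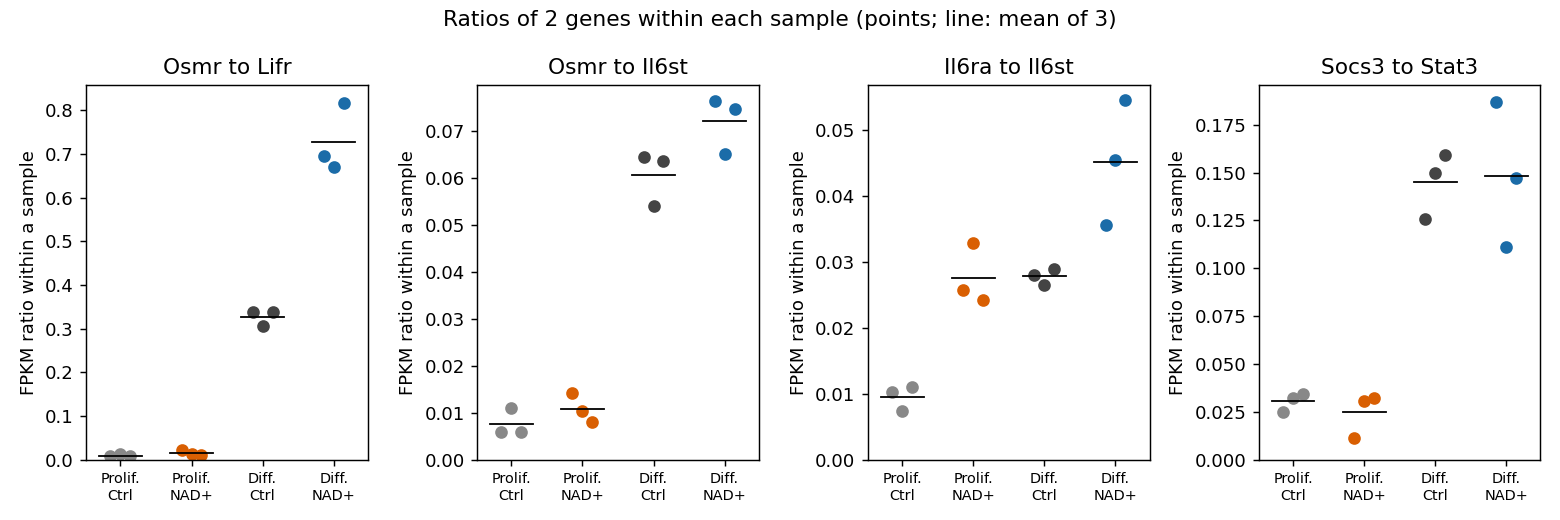
Ratio of the FPKM of 2 genes within each sample (points) by group, with the mean of 3 samples as a line, for Osmr to Lifr, Osmr to Il6st, Il6ra to Il6st and Socs3 to Stat3, on linear axes from 0. The ratio of Osmr to Lifr is near 0 in proliferating samples and higher in every differentiation NAD+ sample (0.670 to 0.818) than in every differentiation Ctrl sample (0.306 to 0.339), whereas Socs3 to Stat3 overlaps between Ctrl and NAD+.

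The ligand genes were low or showed no clear difference upon NAD+ exposure. Lif (ENSMUSG00000034394, chr11:4257557-4272514, plus strand), whose product binds the LIF receptor with gp130, was at 0.34, 0.43 and 0.60 FPKM in differentiation Ctrl and at 0.39, 0.45 and 0.61 FPKM in differentiation NAD+. The groups overlapped almost fully (log2 difference 0.08, SE 0.26). In proliferating samples Lif was at 0.08, 0.15 and 0.12 FPKM in Ctrl and at 0.19, 0.17 and 0.13 FPKM with NAD+, which also overlapped (log2 difference 0.29, SE 0.29). Osm, the gene of oncostatin M and the neighbour of Lif at a distance of 16.5 kb, was at 0 in all 12 samples, as rounded. The highest Il6 value of any sample was 0.06 FPKM.

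Cntf (ENSMUSG00000079415, chr19:12763660-12765632, minus strand), the gene of ciliary neurotrophic factor, shares 78.9% of its exon bases with Zfp91 on the same strand, so its level may hold reads of Zfp91 or lack reads that could not be assigned. Under differentiation conditions it was at 9.21, 9.14 and 9.73 FPKM in Ctrl and at 8.31, 9.19 and 7.71 FPKM with NAD+, and the groups overlapped (log2 difference -0.16, SE 0.08). Under proliferating conditions it was at 2.37, 2.12 and 0.88 FPKM in Ctrl and at 2.07, 1.03 and 1.38 FPKM with NAD+. These values varied widely within each group, and the difference of -0.19 (SE 0.41) on the log2 scale was well within that spread.

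The kinase genes differed little. Jak1 (ENSMUSG00000028530, chr4:101152367-101265282, minus strand) was at 25.02, 26.40 and 26.63 FPKM in differentiation Ctrl and at 26.50, 27.04 and 27.19 FPKM in differentiation NAD+, which overlapped (log2 difference 0.05, SE 0.05). Under proliferating conditions it was at 12.99, 14.74 and 14.26 FPKM in Ctrl and at 19.00, 16.32 and 16.71 FPKM with NAD+. All proliferating NAD+ samples were above the Ctrl samples, with a ratio of 1.24 and a log2 difference of 0.31 (SE 0.10), which was not called. Jak2 (ENSMUSG00000024789, chr19:29251828-29313080, plus strand) was at 13.68, 13.76 and 13.37 FPKM in differentiation Ctrl and at 12.02, 12.83 and 13.25 FPKM in differentiation NAD+. The groups did not overlap, by a margin of less than the spread within either, at a ratio of 0.934 and a log2 difference of -0.10 (SE 0.06), or -0.02 after median-ratio scaling. Under proliferating conditions Jak2 was at 13.43, 16.49 and 16.80 FPKM in Ctrl and at 13.77, 13.64 and 14.41 FPKM with NAD+, with overlap (log2 difference -0.15, SE 0.11).

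Stat3 (ENSMUSG00000004040, chr11:100885098-100939540, minus strand) encodes the transcription factor itself, whose activity depends on phosphorylation and is not read from its mRNA. Under differentiation conditions it was at 19.09, 17.16 and 19.04 FPKM in Ctrl and at 20.29, 24.22 and 23.44 FPKM with NAD+. The groups did not overlap, at a ratio of 1.23 and a log2 difference of 0.29 (SE 0.08), which was not called. Under proliferating conditions Stat3 was at 13.75, 16.68 and 15.91 FPKM in Ctrl and at 16.83, 16.56 and 16.64 FPKM with NAD+, with overlap (log2 difference 0.11, SE 0.09).

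Socs3 (ENSMUSG00000053113, chr11:117966079-117970047, minus strand), the feedback inhibitor and a STAT3 target, was at 2.40, 2.57 and 3.03 FPKM in differentiation Ctrl and at 3.80, 2.70 and 3.45 FPKM in differentiation NAD+. NAD+ replicate 2 lay within the Ctrl range, and the log2 difference was 0.30 (SE 0.15) at a ratio of 1.24. Its ratio to Stat3 within a sample was 0.126, 0.150 and 0.159 in Ctrl and 0.187, 0.111 and 0.147 with NAD+, which overlapped on both sides. Under proliferating conditions Socs3 was at 0.34, 0.54 and 0.55 FPKM in Ctrl and at 0.19, 0.51 and 0.54 FPKM with NAD+, with overlap (log2 difference -0.23, SE 0.37).

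**Figure D4:**
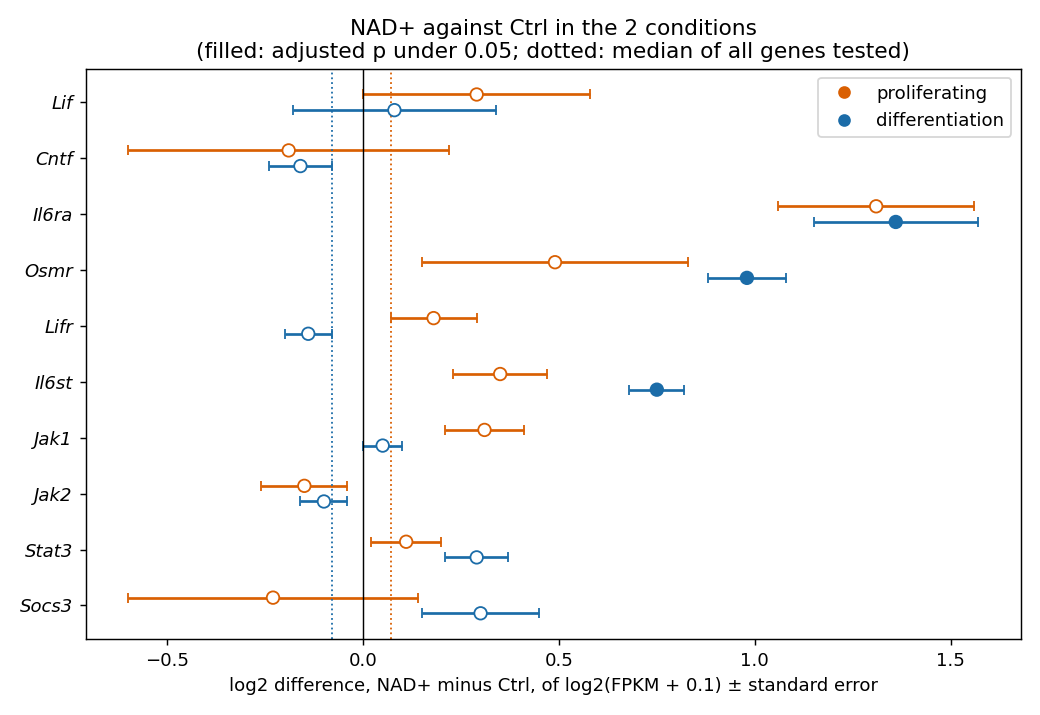
Difference between NAD+ and Ctrl of log2(FPKM + 0.1) for each of the 10 genes (points) with its standard error (bars), proliferating in orange and differentiation in blue, n = 3 per group, where filled points had an adjusted p under 0.05 and dotted lines mark the median of all genes tested. Filled points are those of Il6ra (1.36), Osmr (0.98) and Il6st (0.75) under differentiation conditions. Lifr and Socs3 each lie on opposite sides of 0 in the 2 conditions.

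Counted over the 10 genes, the Ctrl and NAD+ samples did not overlap for 6 genes under differentiation conditions (4 higher and 2 lower with NAD+), against 30.7% of all genes tested, and for 3 genes under proliferating conditions (all higher), against 24.1%. The median log2 difference of the 10 genes was 0.18 under differentiation conditions, beside -0.08 for all genes, and 0.23 under proliferating conditions, beside 0.07. Whether the effect of NAD+ differed between the conditions was fitted as a contrast over all 12 samples. By this contrast 0 of the 10 genes were called by limma, against 0.467% of the 19498 genes tested, and 3 had an unadjusted p under 0.05 (Il6st, Jak1 and Lifr), against 15.5%. The median of all genes in this contrast was -0.16 and moved by 0.15 with median-ratio scaling, so the differences are also given relative to it. The NAD+ difference under differentiation conditions exceeded that under proliferating conditions by 0.40 (SE 0.14) for Il6st, or 0.56 relative to the median of all genes. For Osmr the excess was 0.48 (SE 0.30), or 0.64 relative to the median, and for Il6ra it was 0.05 (SE 0.29). Both values depend on the amount added to the low proliferating FPKM values: with 0.01 in place of 0.1 the excess was 0.19 for Osmr and -0.38 for Il6ra, and with 1 it was 0.68 and 0.58. Lifr and Jak1 differed in the other direction, by -0.32 (SE 0.12) and -0.26 (SE 0.10), which is -0.16 and -0.10 relative to the median. The difference for Osmr was called only with 1 added, and not with 0.1 or 0.01. A larger NAD+ difference of Osmr, Il6ra or Il6st under differentiation conditions was therefore not shown at the setting used.

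The other genes of the pathway were taken from 5 lists of 54 genes in all, of which 42 could be tested under differentiation conditions and 40 under proliferating conditions. Under differentiation conditions 7 of the 42 were called by limma, all higher, and 13 had an unadjusted p under 0.05 (10 higher and 3 lower), beside 2.27% of all genes called higher, 4.65% called lower and 24.2% with an unadjusted p under 0.05. The lists were chosen with earlier results of these samples known, so the counts and p-values below are not independent evidence. All 7 that rose were among the 17 tested of 18 STAT3 target genes, where 0 were called lower and the median log2 difference was 0.43. Of these 17 genes 1 had an unadjusted p under 0.05 in the lower direction, Hif1a (log2 difference -0.14). Lcn2, the gene of the secreted iron-siderophore carrier lipocalin 2, was at 27.59, 21.65 and 25.66 FPKM in Ctrl and at 176.36, 172.91 and 178.35 FPKM with NAD+ (log2 difference 2.82, adjusted p = 0.000238 by limma). Junb, an AP-1 transcription factor gene, rose from 10.9 ± 0.2 to 32.0 ± 2.34 FPKM (SD, n = 3; log2 difference 1.54, limma adjusted p = 0.000805). Timp1, an inhibitor of metalloproteinases, rose by 0.92 (limma adjusted p = 0.0108) and Cebpd, a C/EBP transcription factor gene, by 0.80 (limma adjusted p = 0.00494). The other three that rose were Gfap (0.72), Fos (0.69) and Mcl1 (0.63), named here because the count is small. Several of these genes, Fos and Junb among them, are known to be induced by other pathways as well, and Gfap is an astrocyte marker. Timp1 lost its call without differentiation Ctrl replicate 1 (limma adjusted p = 0.0513), and the other 6 kept theirs in all 13 alternatives.

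**Figure D5:**
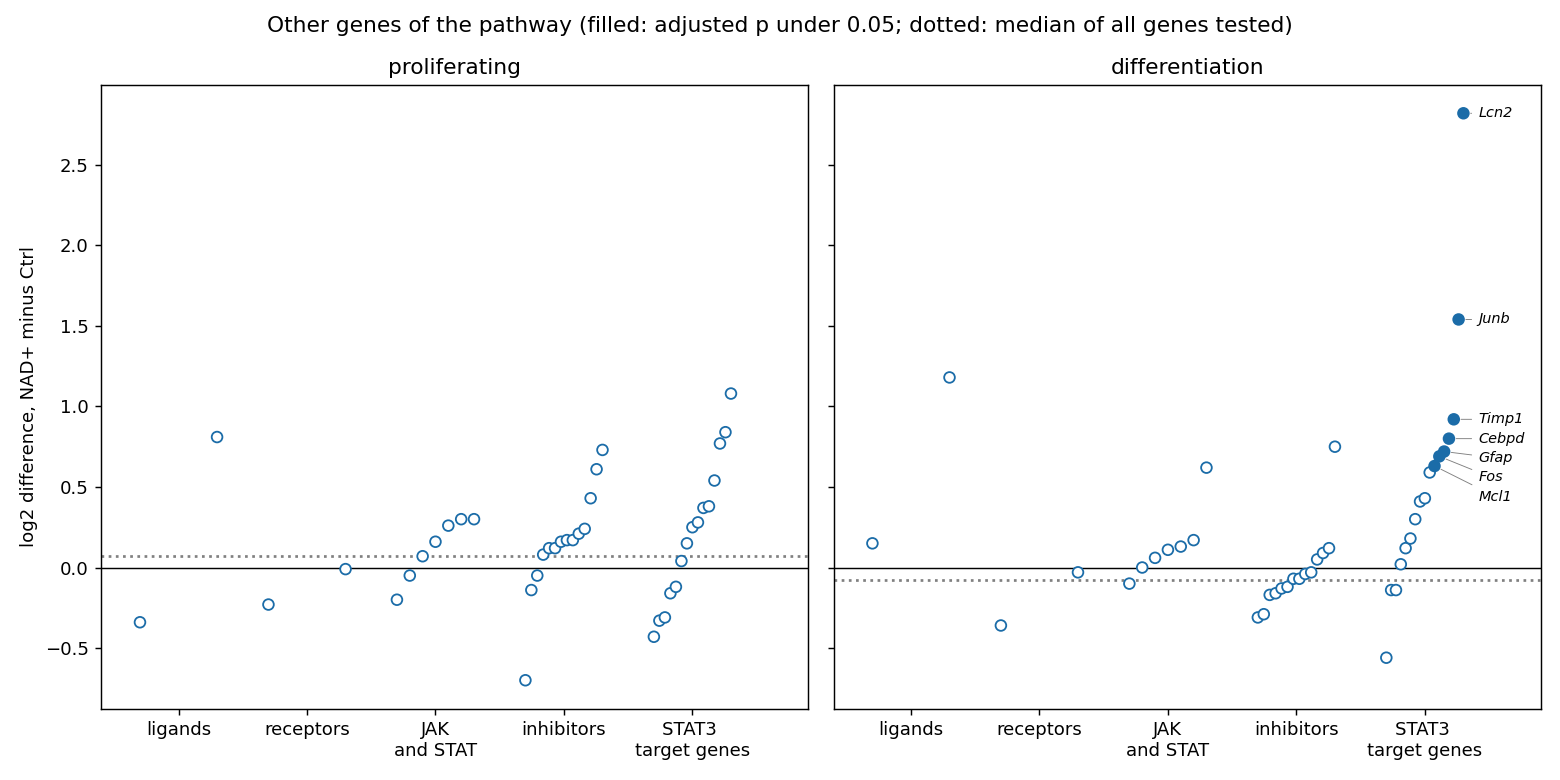
Difference between NAD+ and Ctrl of log2(FPKM + 0.1) for the other tested genes of the pathway (points) in 5 lists, under proliferating (left) and differentiation (right) conditions, n = 3 per group, where filled points had an adjusted p under 0.05 and the dotted line is the median of all genes tested. Under differentiation conditions 7 STAT3 target genes are filled above 0, from Mcl1 (0.63) to Lcn2 (2.82), whereas no point is filled under proliferating conditions.

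Among the ligands, 2 of 8 genes could be tested, Ctf1 and Clcf1, and 0 were called by limma (1 by an unadjusted p under 0.05). Clcf1, the gene of a CNTF receptor ligand, was named after its values were seen. It was at 1.41 ± 0.641 FPKM in differentiation Ctrl and 3.16 ± 0.882 FPKM in differentiation NAD+ (SD, n = 3), without overlap. The log2 difference was 1.18 (limma adjusted p = 0.109), and the rule of the study, with the limma p, called it (ratio 2.25). In proliferating samples Clcf1 was at 0.06 to 0.15 FPKM in Ctrl and 0.23 to 0.29 FPKM with NAD+, also without overlap. Of the receptor list 2 of 5 genes could be tested, Il11ra1 and Cntfr, of the JAK and STAT list 7 of 8, and of the inhibitors 14 of 15, and 0 of them were called (by unadjusted p under 0.05, 1 in each list). Their median log2 differences were -0.20, 0.11 and -0.07. Under proliferating conditions 0 of the 40 tested genes were called by limma, beside 0.145% of all genes. Of the 40 genes, 9 had an unadjusted p under 0.05 (all higher), beside 15.4% of all genes. The rule of the study, with the limma p, called 2, Timp1 (ratio 2.22) and Clcf1 (ratio 2.39), beside 3.01%. The difference between the conditions was called for 1 of 43 genes, Lcn2, beside 0.467% of all genes. In this contrast 11 of the 43 had an unadjusted p under 0.05 (4 higher and 7 lower), beside 15.5%.

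Some markers of cell types moved with the NAD+ difference in the receptor genes. Under differentiation conditions the 7 astrocyte markers summed to 1320 to 1410 FPKM in Ctrl samples and 1730 to 1860 FPKM in NAD+ samples, with Gfap, Slc1a2 and Slc1a3 called higher and Aldh1l1 lower. Gfap, also counted among the STAT3 targets, made up most of this gap, and without it the sum of the other 6 was 723 to 861 and 767 to 861 FPKM. Aqp4 was at 31.75, 33.66 and 38.87 FPKM in Ctrl and at 28.80, 27.46 and 27.25 FPKM with NAD+, so that 4 astrocyte markers were higher and 2 lower in every NAD+ sample. The 5 markers of the oligodendrocyte lineage used summed to 350.0 to 374 FPKM in Ctrl and 292 to 337 FPKM with NAD+ (none called), and the 4 neural stem cell markers to 576 to 627 and 467 to 556 FPKM (Pax6 called lower). The 5 neuronal markers summed to 29.3 to 34.5 and 29.8 to 30.0 FPKM, with none called. Under proliferating conditions the neural stem cell markers summed to 2320 to 2550 FPKM in Ctrl and 1310 to 1820 FPKM with NAD+. The astrocyte markers summed to 583 to 682 and 483 to 623 FPKM there. The oligodendrocyte lineage markers summed to 1260 to 1370 and 1000 to 1040 FPKM, with Olig1, Olig2 and Cspg4 lower in every NAD+ sample and none higher in every one. None of these markers was called under proliferating conditions. Fabp7 made up most of the neural stem cell sum, and the other 3 markers summed to 286 to 303 FPKM in Ctrl and 284 to 316 FPKM with NAD+. The part of cell composition in the differences of Osmr, Il6ra and Il6st was not tested.

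The genes whose pattern over the 12 samples was most like that of Osmr, among 11648 genes that averaged 1 FPKM or more in both conditions, were Slc39a14 (Pearson's r = 0.9971), Col4a5 (0.997), Slc38a1 (0.9967), Pcsk6 (0.9958) and mt-Ty (0.9956). The samples fall into 2 separate conditions, which set most of this likeness, so it is given as a description. Slc39a14, a zinc and iron transporter gene, was at 2.40 and 2.71 FPKM on average in proliferating Ctrl and NAD+ and at 12.4 and 18.3 FPKM in differentiation Ctrl and NAD+. Slc38a1, an amino acid transporter gene, was at 13.0, 15.0, 55.8 and 87.4 FPKM in the same order.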

How the data were processed

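RNA-seq libraries of 12 aNSPC samples were made by the authors with a NEBNext Ultra kit, and reads were mapped to mm10 with Hisat2 2.0.5, with uniquely mapped reads counted by FeatureCounts 2.0.1. FPKM values of each sample were deposited by the authors, with proliferating and differentiation samples in separate tables. The program that computed them is not given in the sources used here, and since all values are multiples of 0.01, reads and depth could not be recovered. Beside them, per the file headers, stand the authors' own comparisons: a fold change (ratio), its log2, and p- and q-values (p-value, q-value), none of which were used. No per-sample column was left out.

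Genes averaging 0.1 FPKM or more were fitted as log2(FPKM + 0.1) with limma 3.58.1 in R 4.3.3 (two-sided, variance trend), NAD+ against Ctrl within each condition, plus the difference of these effects over all 12 samples, adjusted by Benjamini-Hochberg over all genes. The code was tested on simulated data. The 10 genes and the lists were chosen with earlier results of these data known. The genes named are the 10, up to 4 called genes per list and condition by size, and the 5 most correlated with Osmr, with exceptions marked, and some listed genes are not reported here. Alternatives were 1 or 0.01 as pseudocount, no filter or a minimum mean FPKM of 1, median-ratio scaling, quantile normalization, a replicate block, leaving out each sample, and the study's rule. Same-numbered samples correlated around their group means at only 0.0215 to 0.111, though most correlated best with their own number. Numbers were not taken as pairs in the main fit, and the replicate block was the alternative. Positions are from GENCODE M21, promoter sequences from RefSeq GRCm38.p6. Python 3.11.15 was used for tables and plots.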

Additional observations from a re-analysis of the deposited data

Results flagged for a closer look

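The effect of NAD+ on Lcn2 differed between the conditions by 3.01 on the log2 scale (SE 0.29, adjusted p = 0.00244 by limma), the difference between the conditions itself having been fitted. Under proliferating conditions Lcn2 was at 0.08, 0 and 0.05 FPKM in Ctrl samples and at 0, 0.03 and 0.04 FPKM in NAD+ samples, at or near the rounding step, so that its proliferating term rests on values near 0. With 0.01 in place of 0.1 added to the FPKM values the difference was not called.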

How the results depend on the processing

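Over the alternatives, Osmr and Il6st kept their calls under differentiation conditions and Il6ra lost its call without some samples, as given above. Leaving out samples turned the sign of 3 small differences: Cntf under proliferating conditions ranged from -0.61 to 0.06, Socs3 under proliferating conditions from -0.43 to 0.14, and Lif under differentiation conditions from -0.08 to 0.25. The 10 genes had 0 calls under proliferating conditions and 2 to 3 under differentiation conditions without single samples. By the study's rule with the limma p, the calls under proliferating conditions were 1 of the 10, 2 other pathway genes and 559 genes in all. Under differentiation conditions that rule called 3 other pathway genes and 795 genes in all. These totals are not the study's own counts. Genes called in all, 27 under proliferating conditions, became 9 without the filter, 75 at a minimum mean FPKM of 1, 60 with quantile normalization and 0 to 36 without single samples. Under differentiation conditions they were 1357, and 328 to 719 without single samples; other pathway genes called were 6 to 8. For the difference between conditions, 91 genes in all became 139 with 1 as pseudocount and 12 to 195 without single samples. There 1 of the 10 genes was called with 1 as pseudocount, and other pathway genes called were 0 with 0.01 as pseudocount, 3 with quantile normalization and 1 to 3 without single samples. The cause was not tested. With the replicate block, genes called in all were 0, 758 and 26 for proliferating conditions, differentiation conditions and the difference, and 5 of 6 same-numbered pairs correlated best with their own number. The block changed no call of the 10 genes. At a minimum mean FPKM of 1, Lif, Il6ra, Osmr and Socs3 under proliferating conditions and Lif under differentiation conditions gave no value.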
